A study of Mus musculus with 12 samples.

Results

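10 genes of the autophagy machinery were examined in RNA of sorted mouse muscle stem cells: Ulk1, Becn1, Atg5, Atg7, Sqstm1, Map1lc3a, Map1lc3b, Gabarap, Gabarapl1 and Gabarapl2. They were taken by gene symbol from the table of estimated counts and the matching table of TPM (transcript levels per unit of length), which hold 30154 genes. All 10 were found once, and all 10 passed the filter on low counts that left 15890 genes for testing.

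Flow cytometry sorted the cells out of 3 hindlimb muscles, the quadriceps, gastrocnemius and tibialis anterior, of C57BL/6J mice aged 2 to 3 months. The mice were wild type or carried a knockout of Sestrin1 and Sestrin2, and cells were taken before injury, called day 0 here, and 7 and 21 days after injury. The labels give 2 replicates per genotype and day, 12 libraries in 6 groups, so every group value has n = 2. Neither the kind of injury, the sex, a batch nor the way the knockout was made is labelled, and nothing says that replicates came from separate animals. If they did not, the p-values measure only a technical spread between libraries.

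Autophagy encloses cell contents in a double membrane, the autophagosome, and delivers them to the lysosome for breakdown. The kinase ULK1 starts the process, Beclin 1 (Becn1) belongs to the lipid kinase complex that marks the growing membrane, and ATG7 and ATG5 act in the reactions that attach proteins of the ATG8 family to that membrane. The ATG8 family has an LC3 branch (Map1lc3a, Map1lc3b) and a GABARAP branch (Gabarap, Gabarapl1, Gabarapl2), and p62 (Sqstm1) is a receptor that binds ubiquitinated cargo and LC3 and is itself degraded by autophagy. Sestrins are stress-induced proteins known to restrain the kinase complex mTORC1, which holds ULK1 inactive, and muscle stem cells are known to need autophagy to stay quiescent. Transcript levels are not a measure of autophagic flux.

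Total estimated counts ranged from 28396780 to 38950514 per library. Both targeted genes served to check the labels. Sesn1 did not bear out its part of the knockout label at day 0: it was at 70.3 and 68.6 CPM (counts scaled to library size by TMM) in wild-type and 46.0 and 45.8 CPM in knockout libraries, 0.661 of wild type and not called (edgeR adjusted p 0.144). At day 7 it was called lower in knockout (0.335 of wild type, edgeR adjusted p 0.0301), with 84.0 and 67.9 against 28.4 and 22.4 CPM, and at day 21 the labelled genotypes overlapped, with 43.7 and 78.3 against 41.7 and 67.2 CPM. The labels do not say which part of Sesn1 was deleted. For Sesn2 the gap was wider. Wild-type libraries held 75.1 and 84.3 CPM of it at day 0 and knockout libraries 5.47 and 7.03 CPM, and day 7 gave 44.9 and 47.4 CPM for wild type against 2.36 and 1.92 CPM for knockout, though neither difference was called (edgeR adjusted p 0.0580 and 0.170). Sesn2 contradicted 2 labels of day 21: the libraries labelled wild type, replicates 1 and 2, held 8.92 and 82.1 CPM, and those labelled knockout 9.86 and 108 CPM. Genotype at day 21 is therefore given only by label, and the day itself was compared as an average over all 4 libraries of a day. The 8 markers of muscle stem cells were all detected, with a summed level of 1216 to 1223 CPM in wild-type and 793 to 844 CPM in knockout libraries of day 0, where Pax7 was at 24.5 and 27.2 CPM against 10.2 and 13.9 CPM.

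Compared per length of transcript, the members spanned a wide range of levels. In TPM, Sqstm1 had the highest median over the 12 libraries, 1672 (range 1117 to 2911), followed by Map1lc3b at 649 (501 to 734), Gabarap at 563 (456 to 692), Map1lc3a at 336 (238 to 497) and Gabarapl2 at 187 (159.6 to 277). Becn1 had a median of 158 TPM (140.2 to 197) and Gabarapl1 one of 139 TPM (94.4 to 185). Atg7 at 22.6 (18.9 to 28.7), Ulk1 at 22.1 (15.6 to 43.7) and Atg5 at 20.2 TPM (16.2 to 31.8) were the lowest. The order from Sqstm1 down to Becn1 held within each of the 12 libraries. Becn1 was above Gabarapl1 in 7 of 12, Atg7 was above Ulk1 in 3 of 12 and Ulk1 was above Atg5 in 6 of 12, so these neighbours had no fixed order. Sqstm1 was higher than 99.7% of the tested genes by mean TPM over the 12 libraries, and the 3 lowest members stood above 67.0% to 69.8% of them.

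The stretches before the start sites of 4 members are shown because these genes carried the largest called changes of 2 comparisons below: Gabarapl1 and Gabarapl2 between genotypes at day 0, and Sqstm1 and Ulk1 between day 7 and day 21. RefSeq promoters on GRCm38.p6, 250 bases before the start site, were found for 8 of the 10 members, the others being Map1lc3a and Becn1. Only the bases before the GENCODE gene start are printed. Capitals mark the GC box, GGGCGG, on either strand (CCGCCC where it lies on the other strand), the letters bound by SP1-type factors. The Gabarapl1 stretch lies at chr6:129532942-129533159 (plus strand), the Gabarapl2 stretch at chr8:111940453-111940702 (plus strand), the Sqstm1 stretch at chr11:50210828-50211070 (minus strand) and the Ulk1 stretch at chr5:110810098-110810331 (minus strand).
Gabarapl1: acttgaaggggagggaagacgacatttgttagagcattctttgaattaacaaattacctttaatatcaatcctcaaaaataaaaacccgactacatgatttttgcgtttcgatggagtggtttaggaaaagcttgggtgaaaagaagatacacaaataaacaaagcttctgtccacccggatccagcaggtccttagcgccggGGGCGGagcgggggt
Gabarapl2: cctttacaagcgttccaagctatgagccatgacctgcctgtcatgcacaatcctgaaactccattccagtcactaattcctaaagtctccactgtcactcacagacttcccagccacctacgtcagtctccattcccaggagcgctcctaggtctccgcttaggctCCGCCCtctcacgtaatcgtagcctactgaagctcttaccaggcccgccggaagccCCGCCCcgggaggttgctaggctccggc
Sqstm1: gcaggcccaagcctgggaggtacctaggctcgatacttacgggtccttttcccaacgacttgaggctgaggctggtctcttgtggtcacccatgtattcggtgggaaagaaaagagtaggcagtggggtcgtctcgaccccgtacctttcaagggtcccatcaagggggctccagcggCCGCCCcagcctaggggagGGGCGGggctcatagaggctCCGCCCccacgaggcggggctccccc
Ulk1: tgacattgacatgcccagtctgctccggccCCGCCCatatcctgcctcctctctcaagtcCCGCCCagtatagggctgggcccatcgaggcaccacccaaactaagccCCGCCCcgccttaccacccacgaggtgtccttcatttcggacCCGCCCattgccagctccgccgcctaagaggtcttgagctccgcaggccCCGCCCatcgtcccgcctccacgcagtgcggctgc

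In the full windows of 250 bases a GC box was found for 6 of the 8 members, Ulk1 with 5 matches, Sqstm1 with 3, Gabarapl1 and Gabarapl2 with 2 each, and Map1lc3b and Atg5 with 1 each. Of all 32851 promoter windows of that length, 32.7% held one. The E-box CACGTG was found in the Atg5 and Atg7 windows and in 6.02% of all windows. No match in the 8 windows was found for GTAAACA (read by FOXO factors; 3.17%) or for TGACNNNGC (the antioxidant response element; 10.2%). A match is a description of the letters in this window only.

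**Figure D1:**
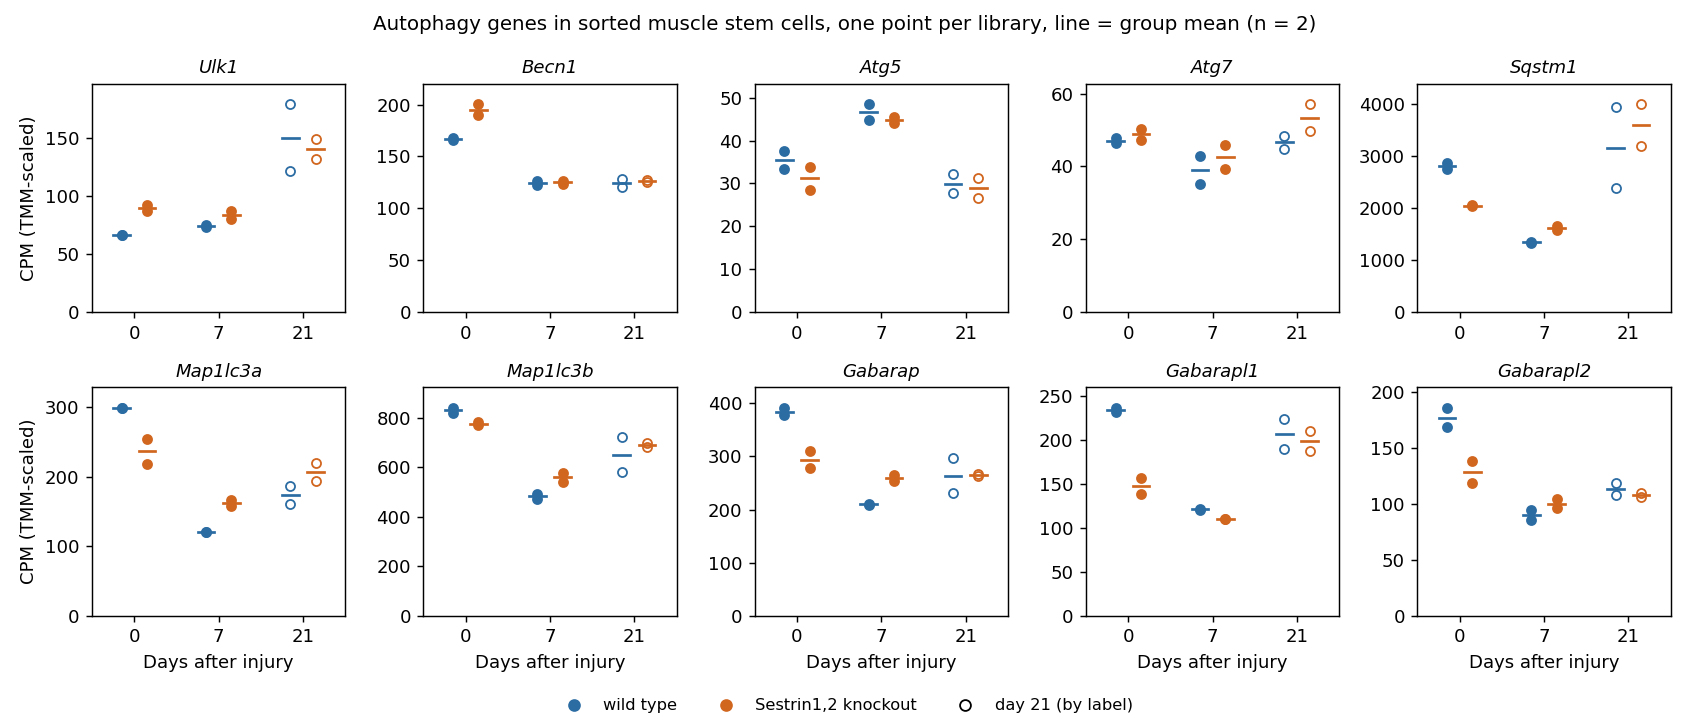
CPM of each of the 10 genes (vertical axes from 0, each on its own scale) at days 0, 7 and 21, with 1 point per library and a line at the group mean of 2 libraries; open points are day 21, where genotype is by label. The LC3 and GABARAP genes have their highest points in wild type at day 0 and lower points at day 7, Ulk1 and Sqstm1 are highest at day 21, and Atg5 is highest at day 7.

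Ulk1, the kinase that starts autophagy, is a protein-coding gene (ENSMUSG00000029512) on the minus strand of GRCm38 chromosome 5, from 110784488 to 110810097. Before injury, wild-type libraries held 66.6 and 66.2 CPM of its transcript and knockout libraries 87.4 and 92.7 CPM. Day 7 gave 73.1 and 74.7 CPM for wild type and 87.0 and 80.0 CPM for knockout. Both knockout libraries thus lay above both wild-type libraries on each of these days, but neither difference passed the test across all genes. The log2 fold change of knockout over wild type was 0.44 (SE 0.15, edgeR adjusted p 0.0559) at day 0 and 0.18 (SE 0.15, edgeR adjusted p 0.689) at day 7. The libraries of day 21 held 179 and 122 CPM when labelled wild type and 132 and 149 CPM when labelled knockout, above every library of the earlier days.

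Becn1 codes for a subunit of the lipid kinase complex of the early autophagosome and is a protein-coding gene (ENSMUSG00000035086) on the minus strand of chromosome 11, from 101285952 to 101302286. Wild-type libraries held 166 and 168 CPM before injury and knockout libraries 189 and 200.1 CPM, without overlap, for a log2 fold change of 0.22 (SE 0.08, edgeR adjusted p 0.0584). By day 7 the wild-type level was 122 and 126 CPM and the knockout level 123 and 127 CPM, and the 4 libraries of day 21 lay between 120.1 and 128 CPM. Genotypes overlapped on both later days. A stretch of 1299 bases of the Becn1 transcript is identical to part of a transcript of Cntd1, listed at 26 to 222 counts per library. The counting is not stated to use strand, so the Becn1 level is uncertain to that extent.

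Atg5 and Atg7 serve the reactions that attach ATG8 proteins to lipid. Atg5 (ENSMUSG00000038160, protein coding) lies on the plus strand of chromosome 10 from 44268358 to 44364291. Its transcript was at 37.5 and 33.3 CPM in wild-type libraries of day 0 and at 28.6 and 33.8 CPM in knockout libraries, then at 48.4 and 44.7 CPM and at 44.1 and 45.5 CPM a week after injury. Every library of day 7 was higher than every library of day 0 and of day 21, where the 4 values lay between 26.7 and 32.1 CPM. Atg7 (ENSMUSG00000030314, protein coding) lies on the plus strand of chromosome 6 from 114643097 to 114860614. Its 4 libraries of day 0 held 46.6 to 50.4 CPM, its wild-type libraries of day 7 42.8 and 35.2 CPM, its knockout libraries of day 7 45.9 and 39.3 CPM and the libraries of day 21 44.9 to 57.1 CPM. For both genes the genotypes overlapped before injury and at day 7.

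Map1lc3a of the LC3 branch (ENSMUSG00000027602, protein coding) lies on the plus strand of chromosome 2 from 155276297 to 155278073. Before injury its level was 298 and 299 CPM in wild-type libraries and 255 and 219 CPM in knockout libraries. A week later the order of the genotypes was the other way round, with 120.4 and 120.2 CPM for wild type and 167 and 158 CPM for knockout, again without overlap. Map1lc3b (ENSMUSG00000031812, protein coding), the source of the LC3B protein used as an autophagosome marker, lies on the plus strand of chromosome 8 from 121590361 to 121598760. Wild-type libraries held 839 and 821 CPM of it before injury against 781 and 770.3 CPM in knockout libraries, and 494 and 471 CPM against 543 and 577 CPM a week after. Neither of these gaps between genotypes, which did not overlap, passed the test: the log2 fold change was -0.10 (SE 0.10, edgeR adjusted p 0.528) before injury and 0.21 (SE 0.10, edgeR adjusted p 0.400) at day 7. A processed pseudogene of Map1lc3b, Gm6055, matches 378 bases of it at 99.7% identity and is listed at 292 to 484 counts per library, so reads may have been divided between the 2 loci.

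In the GABARAP branch, Gabarap (ENSMUSG00000018567, protein coding) lies on the plus strand of chromosome 11 from 69991143 to 69994951. Its transcript was at 391 and 377 CPM in wild-type libraries before injury and at 309.5 and 278 CPM in knockout libraries, and a week later at 209 and 211 CPM against 254 and 265 CPM. Gabarapl1 (ENSMUSG00000030161, protein coding) lies on the plus strand of chromosome 6 from 129533160 to 129542346. Of the 10 genes it had the largest fold difference between genotypes before injury, 232 and 236 CPM in wild-type libraries against 156 and 138 CPM in knockout libraries, and the same order at day 7, 122 and 120.3 CPM against 110.4 and 109.5 CPM. Gabarapl2 (ENSMUSG00000031950, protein coding) lies on the plus strand of chromosome 8 from 111940703 to 111953612. Wild-type libraries held 185 and 168 CPM of it before injury and knockout libraries 138 and 118 CPM, and a week later the levels were 94.2 and 85.9 CPM against 95.9 and 104 CPM. The genotypes did not overlap for any of the 3 on either day, which also held for 75.1% of all tested genes at day 0 and 47.4% at day 7. At day 21 the 4 libraries held 231 to 296 CPM of Gabarap, 187 to 223 CPM of Gabarapl1 and 106 to 119 CPM of Gabarapl2.

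The receptor gene Sqstm1 (ENSMUSG00000015837, protein coding) lies on the minus strand of chromosome 11 from 50199366 to 50210827. Before injury, wild-type libraries held 2751 and 2862 CPM of its transcript and knockout libraries 2049.8 and 2026 CPM. The order was the other way round a week later, with 1350.2 and 1326 CPM for wild type against 1655 and 1583 CPM for knockout, and on neither day did the genotypes overlap. In the fit of all 12 libraries the log2 fold change was -0.46 (SE 0.19, edgeR adjusted p 0.104) at day 0 and 0.28 (SE 0.19, edgeR adjusted p 0.595) at day 7. Libraries of day 21 were far apart, 3931 and 2374 CPM when labelled wild type and 3984 and 3178 CPM when labelled knockout, so the labelled genotypes overlapped. The fit without the 2 libraries whose labels Sesn2 contradicts (replicate 1 labelled wild type and replicate 2 labelled knockout, both of day 21) was added after seeing the data. It called Sqstm1 at day 0 (-0.46, edgeR adjusted p 0.000344) and at day 7 (0.27, edgeR adjusted p 0.0148). Sqstm1 shares 583 identical bases with a transcript of its neighbour Mrnip, listed under an older name at 27 to 111 counts per library.

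Before injury, knockout cells had less transcript of 4 of the 5 ATG8 genes. Gabarapl1 fell by 0.66 log2 units relative to wild type (SE 0.10, edgeR adjusted p 0.00183), which is 0.631 of the wild-type level. Gabarapl2 fell by 0.46 (SE 0.11, edgeR adjusted p 0.0102), Gabarap fell by 0.38 (SE 0.11, edgeR adjusted p 0.0295) and Map1lc3a fell by 0.34 (SE 0.11, edgeR adjusted p 0.0421). No member was called higher, though Ulk1 at 0.44 (edgeR adjusted p 0.0559) and Becn1 at 0.22 (edgeR adjusted p 0.0584) were near the threshold. The 4 of 10 members called lower stand beside 27.4% of all tested genes called at day 0 and 12.6% called lower, and the 8 of 10 members whose libraries did not overlap stand beside 75.1% of all genes. The median log2 fold change was -0.26 over the 10 members and 0.0022 over all tested genes. In bulk RNA, fewer cells of one type and less RNA per cell cannot be told apart.

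The length of the transcript moved with the day 0 difference. With all tested genes split into 5 bins by the length of the longest GENCODE transcript, the median log2 fold change of knockout over wild type ran from -0.24 in the bin of the shortest (up to 1854 bases) to 0.28 in the bin of the longest (from 5164 bases), and 21.6% of the shortest bin were called lower. Map1lc3a (1112 bases), Gabarap (1351), Gabarapl2 (1677) and Gabarapl1 (1820), the 4 genes called lower, were the members in the shortest bin. Ulk1 (5213 bases) was the one in the longest. With an offset for transcript length and GC content, added after seeing the data, Gabarapl1 remained the only member called, beside 24.1% of all genes, at -0.46 (edgeR adjusted p 0.0177), while Gabarapl2 was at -0.12 (edgeR adjusted p 0.46), Gabarap at -0.17 (edgeR adjusted p 0.369) and Map1lc3a at -0.07 (edgeR adjusted p 0.792).

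Single libraries also decided 3 of these 4 calls. Gabarap lost its call without any 1 of the 4 libraries of day 0, at values from -0.46 to -0.30, Gabarapl2 lost it without wild-type replicate 1 (-0.39) or knockout replicate 2 (-0.35), and Map1lc3a lost it without wild-type replicate 1 (-0.33), wild-type replicate 2 (-0.33), knockout replicate 2 (-0.22) or any 1 of the 4 libraries of day 7 (-0.34 each). The Gabarapl1 call was kept in each of 26 other fits, with log2 fold changes between -0.75 and -0.46 and edgeR, DESeq2 or limma adjusted p-values up to 0.0292. In the other direction, 7 members were called without the replicate 1 or without the replicate 2 library labelled wild type of day 21, or without both libraries whose labels Sesn2 contradicts, in fits that called 32.7%, 32.7% and 38.1% of all genes. On the log2(TPM + 1) scale limma called Gabarapl1 and Gabarapl2 lower and Ulk1 (0.47, adjusted p 0.0452) and Becn1 (0.26, adjusted p 0.0310) higher, but neither Gabarap (-0.20, adjusted p 0.178) nor Map1lc3a (-0.23, adjusted p 0.170). The added calls in the fit without the doubted libraries were Sqstm1 as above, Ulk1 at 0.45 (edgeR adjusted p 0.00164) and Becn1 at 0.23 (edgeR adjusted p 0.0179).

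Markers of other cells differed between the genotypes at day 0 as well. The summed level of 5 skin epithelium markers was 204 to 216 CPM in wild type and 3.50 to 4.05 CPM in knockout, that of 5 red blood cell markers was 877 to 883 against 193 to 204 CPM, and that of 4 Schwann cell markers was 933 to 977 against 1218 to 1241 CPM. The 5 fibro-adipogenic markers had the largest sum, 8604 to 8745 CPM in wild type against 6492 to 6603 CPM in knockout, and the 5 endothelial markers summed to 139.8 to 167 against 193 to 195 CPM. The 6 leukocyte markers summed to 1769 to 1800 CPM in wild type and 2898 to 2935 CPM in knockout, nearly all of it Lyz2, while Ptprc and C1qa stood between 0 and 0.18 CPM. The part of these cells in the differences of the 10 genes was not tested.

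**Figure D2:**
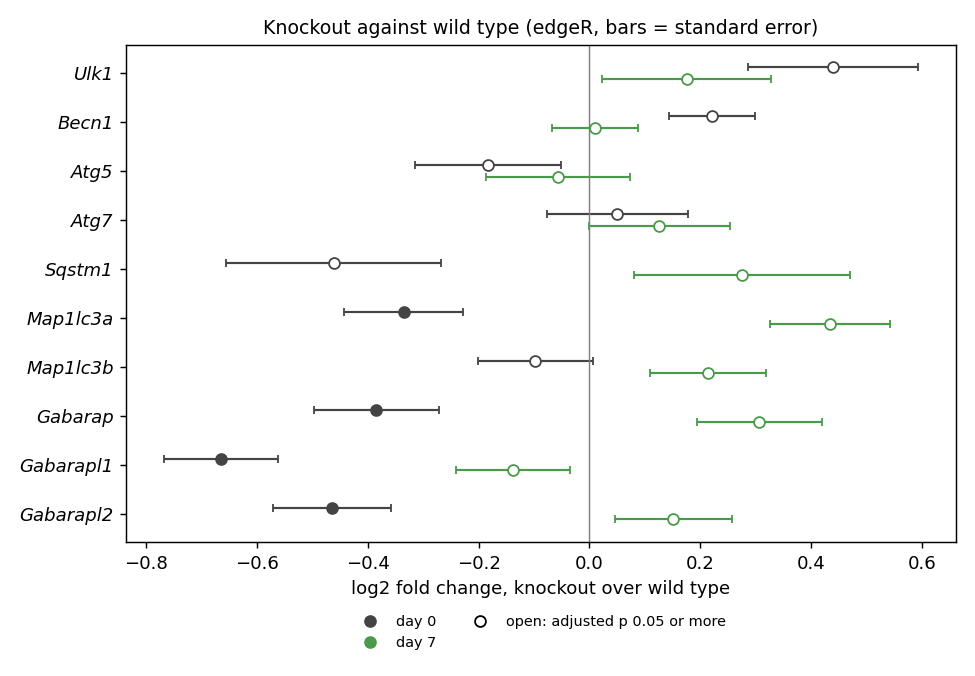
Log2 fold change of knockout over wild type for each of the 10 genes (horizontal axis) at day 0 and day 7, with standard errors from the edgeR fit; filled points have an adjusted p under 0.05. Map1lc3a, Gabarap, Gabarapl1 and Gabarapl2 are filled at day 0, where they lie between -0.66 and -0.34, and no point is filled at day 7, where Map1lc3a is at 0.43.

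**Figure D3:**
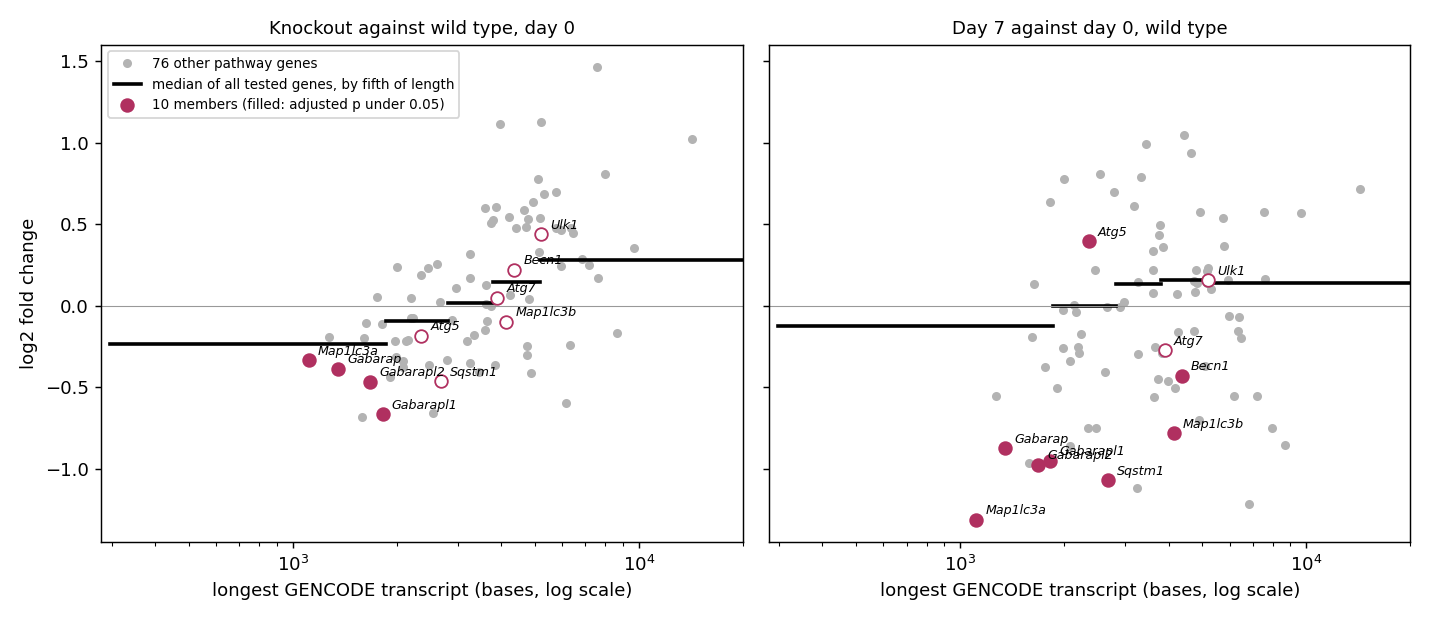
Log2 fold change against the length of the longest GENCODE transcript (log axis), for knockout over wild type at day 0 on the left and day 7 over day 0 in wild type on the right. The 10 genes are named, grey points are 76 other autophagy and lysosome genes, and black bars are medians of all tested genes in 5 bins of length, clipped at the axis ends; on the left the bars climb from -0.24 to 0.28, on the right they lie between -0.12 and 0.16.

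At day 7 after injury no member differed between genotypes by the edgeR test, against 1.76% of all genes called (1.08% higher and 0.68% lower). At an unadjusted p under 0.05 there were 2, beside 14.3% of all genes: Map1lc3a at 0.43 (SE 0.11, edgeR adjusted p 0.0802) and Gabarap at 0.31 (SE 0.11, edgeR adjusted p 0.239), and DESeq2 called 1, beside 4.78% of all genes. The libraries of 7 members did not overlap, beside 47.4% of all genes, and 8 of the 10 fold changes were above 0. Gabarapl1 (-0.14, SE 0.10) and Atg5 (-0.06, SE 0.13) were the ones below 0. Map1lc3a was called without either of the libraries labelled wild type of day 21 (0.43 in both fits, which called 3.93% and 3.9% of all genes), and without the 2 libraries whose labels Sesn2 contradicts 3 members were called, beside 7.28% of all genes, Map1lc3a at 0.43 (edgeR adjusted p 0.0119), Gabarap at 0.30 (edgeR adjusted p 0.0292) and Sqstm1.

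By label, the genotypes at day 21 did not differ in any member by the edgeR test, against 0.0126% of all genes called (0.00629% in each direction). Map1lc3a alone had an unadjusted p under 0.05, as did 14.2% of all genes, with 187 and 161 CPM under the wild-type label and 193 and 220.2 CPM under the knockout label (log2 fold change 0.25, SE 0.11, edgeR adjusted p 0.330), and DESeq2 called none, beside 2.7% of all genes. The libraries of 2 members did not overlap, Map1lc3a and Atg7, beside 38% of all genes. Without the replicate 1 library labelled wild type Sqstm1 was called at 0.60 (edgeR adjusted p 0.0279; 5.58% of all genes called), and without both doubted libraries, which leaves 1 library per label, at 0.76 (edgeR adjusted p 0.00107; 7.67% of all genes called), where a lone library is assumed to vary like those of the other groups.

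In wild-type cells the ATG8 genes and Sqstm1 fell together from day 0 to day 7. Map1lc3a fell by 1.31 log2 units (SE 0.11, edgeR adjusted p 9.69e-06), to 0.403 of its day 0 level, and Sqstm1 fell by 1.07 (SE 0.20, edgeR adjusted p 0.00143), to 0.477. The others fell by similar amounts, Gabarapl2 by 0.97, Gabarapl1 by 0.95, Gabarap by 0.87 and Map1lc3b by 0.78, each with an SE of 0.10 or 0.11 and an edgeR adjusted p of at most 0.000197. Becn1 fell by 0.43 (SE 0.08, edgeR adjusted p 0.00129), while Atg5 rose by 0.40 (SE 0.13, edgeR adjusted p 0.0298). Ulk1 was at 0.16 (SE 0.15) and Atg7 at -0.27 (SE 0.13), neither past the test.

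With 7 members lower and 1 higher, 8 of 10 were called, beside 47% of all tested genes and 21.2% called lower (25.8% higher). None of the 10 overlapped between the days, nor did 79.6% of all genes. The median over the members was -0.83 and over all tested genes 0.06. With the offset for length and GC content the 5 ATG8 genes were still called lower, between -0.93 and -0.74 with edgeR adjusted p-values of at most 0.00106. On the log2(TPM + 1) scale Becn1 was at -0.03 (limma adjusted p 0.802) and lost its call, while Gabarap (-0.55), Map1lc3b (-0.51) and Atg5 (0.60) were still called. Atg5 lost its call without any 1 of the 4 wild-type libraries of these days, at 0.30 to 0.47.

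In knockout cells 4 of the 5 ATG8 genes and Becn1 fell over the same interval. Becn1 fell by 0.64 (SE 0.08, edgeR adjusted p 9.06e-05), Map1lc3a fell by 0.54 (SE 0.11, edgeR adjusted p 0.00210), Map1lc3b fell by 0.47 (SE 0.10, edgeR adjusted p 0.00394), Gabarapl1 fell by 0.42 (SE 0.10, edgeR adjusted p 0.00665) and Gabarapl2 fell by 0.36 (SE 0.11, edgeR adjusted p 0.0183). Atg5 rose by 0.52 (SE 0.13, edgeR adjusted p 0.00790). Gabarap at -0.18 (SE 0.11) and Sqstm1 at -0.33 (SE 0.19) did not pass, with edgeR adjusted p-values of 0.216 and 0.189. That makes 6 of 10 called, 5 of them lower, beside 46.9% of all genes called and 22.2% called lower (24.7% higher), and all 10 members without overlap, beside 76.1%. Without knockout replicate 1 of day 0 only 3 were called, beside 36.7% of all genes, Atg5 (0.41), Gabarapl1 (-0.33) and Gabarapl2 (-0.24) being lost, and Gabarapl2 was lost without knockout replicate 1 of day 7 (-0.30). On the log2(TPM + 1) scale Map1lc3b (-0.16, limma adjusted p 0.156) and Gabarapl2 (-0.23, limma adjusted p 0.0559) lost their calls, and with the offset for length and GC content Atg5 did (0.25, edgeR adjusted p 0.122), while Gabarapl2 was at -0.65. Without the replicate 1 or the replicate 2 library labelled wild type of day 21 Sqstm1 was called (-0.36 and -0.33), and without the former Gabarap as well (-0.21).

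Summed markers of muscle differentiation moved with the day in both genotypes: the 4 markers of myogenic commitment summed to 199 to 234 CPM at day 0, 1140.4 to 1415 CPM at day 7 and 319 to 408 CPM at day 21, and the 6 of mature fibre to 47.8 to 75.8, 1487 to 3254 and 210.2 to 509 CPM. Among those of commitment, Myog was at 31.6 to 90.9 CPM at day 0, 763 to 1005 CPM at day 7 and 32.4 to 114 CPM at day 21. Myod1 did not follow it. In wild type Myod1 was at 107 and 125 CPM at day 0 and 151 and 138 CPM at day 7. In knockout it was at 156 and 173 CPM, then 138 and 124 CPM. At day 21 Myod1 stood at 183 to 357 CPM, above every library of the earlier days. Muscle stem cell markers summed to 793 to 1223 CPM at day 0, 1297 to 1462 CPM at day 7 and 1347 to 2113 CPM at day 21. Of these, Sdc4 and Chrdl2 were lower in every library of day 7 than in every library of day 0. Other cell types moved with the day as well: fibro-adipogenic markers summed to 6492 to 8745 CPM at day 0, 18136 to 21470 CPM at day 7 and 12697 to 14828 CPM at day 21, Schwann cell markers to 933 to 1241, 137 to 216 and 336 to 529 CPM, and leukocyte markers to 1769 to 2935, 275 to 412 and 548 to 862 CPM. The fibro-adipogenic markers did not move one way: Col3a1 was at 679 to 1127 CPM at day 0 and 14803 to 18103 CPM at day 7, and Dcn at 5664 to 7458 and 2537 to 3443 CPM. Nor did the leukocyte markers, whose fall was that of Lyz2, from 1765 to 2931 CPM at day 0 to 241 to 368 CPM at day 7. Ptprc, Csf1r, Emr1, Cd68 and C1qa, all at low levels, were each higher in every library of day 7 than in every library of day 0. The part of any of these cells in the changes of the 10 genes was not tested.

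**Figure D4:**
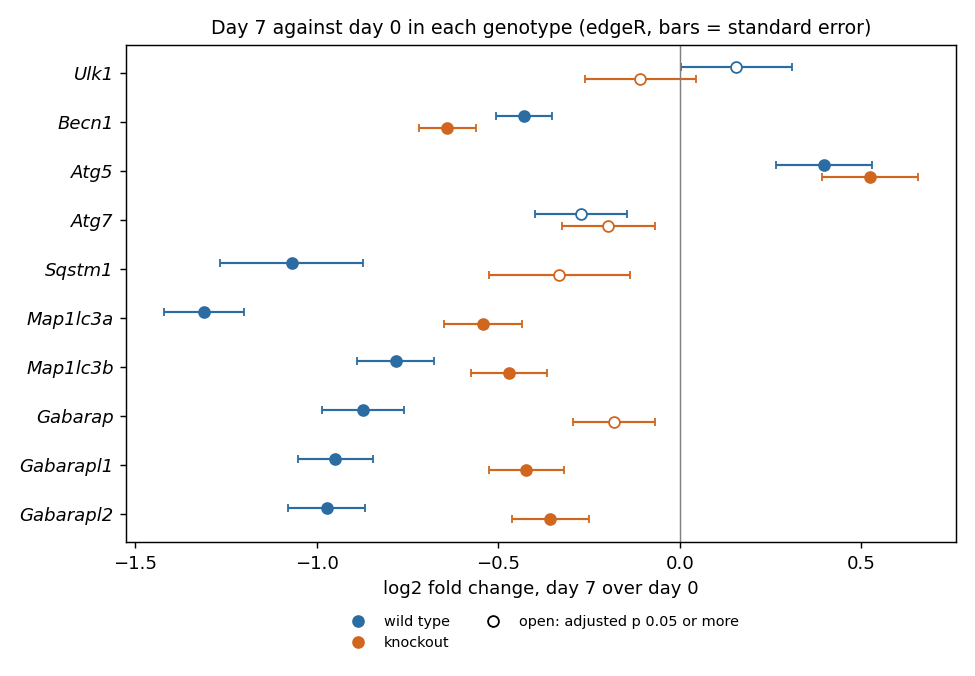
Log2 fold change of day 7 over day 0 (horizontal axis) for each of the 10 genes in wild type and in knockout, with standard errors from the edgeR fit; filled points have an adjusted p under 0.05. The ATG8 genes and Sqstm1 lie between -1.31 and -0.78 in wild type and between -0.54 and -0.18 in knockout, and Atg5 lies above 0 in both.

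The change from day 0 to day 7 differed between the genotypes for 4 ATG8 genes, tested as an interaction. The knockout response minus the wild-type response was 0.77 for Map1lc3a (SE 0.15, edgeR adjusted p 0.0128), 0.69 for Gabarap (SE 0.16, edgeR adjusted p 0.0215), 0.62 for Gabarapl2 (SE 0.15, edgeR adjusted p 0.0260) and 0.53 for Gabarapl1 (SE 0.15, edgeR adjusted p 0.0399), in log2 units. Those are 4 of 10 members, all with a higher value in knockout, beside 13.5% of all genes called and 6.08% called higher (7.39% lower). Sqstm1 had a value of 0.74 (SE 0.28, edgeR adjusted p 0.106), and Map1lc3b one of 0.31 (SE 0.15, edgeR adjusted p 0.190). This test uses the same libraries as the comparisons of day 0 and of each genotype's response, so it restates their values as 1 difference and does not add to them.

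The interaction also moved with transcript length, its median over all genes running from 0.32 in the bin of the shortest transcripts to -0.35 in that of the longest. With the offset for length and GC content no member was called, beside 9.63% of all genes: Map1lc3a was at 0.33 (edgeR adjusted p 0.367), Gabarap at 0.40 (edgeR adjusted p 0.193), Gabarapl2 at 0.25 (edgeR adjusted p 0.324) and Gabarapl1 at 0.22 (edgeR adjusted p 0.426). No member was called without wild-type replicate 1 or 2 of day 0, knockout replicate 2 of day 0, or wild-type replicate 1 of day 7, in fits that called 4.41%, 4.64%, 3.76% and 5.12% of all genes, and 1 was called without wild-type replicate 2 or knockout replicate 2 of day 7, beside 5.57% and 7.11%. On the log2(TPM + 1) scale Gabarap (0.44) and Gabarapl1 (0.43) lost their calls and Becn1 was called at -0.41 (limma adjusted p 0.0423). Without the 2 day 21 libraries whose labels Sesn2 contradicts there were 6, beside 24% of all genes, with Sqstm1 at 0.73 (edgeR adjusted p 0.000526) and Map1lc3b at 0.30 (edgeR adjusted p 0.0262) added.

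By day 21 the members had parted. Against day 0, averaged over both labelled genotypes, Ulk1 rose by 0.91 log2 units (SE 0.11, edgeR adjusted p 0.000102), from a mean of 78.2 to 146 CPM, and Sqstm1 rose by 0.49 (SE 0.14, edgeR adjusted p 0.0151). Becn1 fell by 0.53 (SE 0.06, edgeR adjusted p 4.85e-05), Map1lc3a fell by 0.49 (SE 0.08, edgeR adjusted p 0.000547), Gabarapl2 fell by 0.44 (SE 0.08, edgeR adjusted p 0.000875), Gabarap fell by 0.35 (SE 0.08, edgeR adjusted p 0.00543) and Map1lc3b fell by 0.26 (SE 0.07, edgeR adjusted p 0.0156). These 7 of 10 stand beside 45.9% of all genes called (25% higher and 20.8% lower), and the 3 members without overlap between the days (Ulk1, Map1lc3b and Becn1) beside 30.6%. Gabarapl1 was at 0.12 (SE 0.07, edgeR adjusted p 0.195), with 187 to 223 CPM at day 21 against 138 to 236 CPM at day 0. With the offset for length and GC content Map1lc3a (-0.23, edgeR adjusted p 0.123) and Gabarap (-0.14, edgeR adjusted p 0.247) lost their calls and Gabarapl1 gained one at 0.30 (edgeR adjusted p 0.0143). On the log2(TPM + 1) scale Map1lc3b was at -0.11 (limma adjusted p 0.168) and lost its call, Becn1 was at -0.20 (limma adjusted p 0.0135) and Gabarap at -0.22 (limma adjusted p 0.0273), both still called, and Gabarapl1 gained a call at 0.23 (limma adjusted p 0.0321). Sqstm1 lost its call without wild-type replicate 1 (0.48) or knockout replicate 2 (0.49) of day 0 or the replicate 1 labelled knockout of day 21 (0.40), and Map1lc3b without wild-type replicate 1 (-0.25), wild-type replicate 2 (-0.265) or knockout replicate 2 (-0.26) of day 0, while Gabarapl1 gained one without the replicate 2 labelled wild type of day 21 (0.18). Over 25 other fits the rise of Sqstm1 ran from 0.28 to 0.65.

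From day 7 to day 21 most members rose. Sqstm1 rose by 1.19 (SE 0.14, edgeR adjusted p 4.68e-05), from a mean of 1479 to 3366 CPM, Ulk1 by 0.89 (SE 0.11, edgeR adjusted p 5.70e-05) and Gabarapl1 by 0.81 (SE 0.07, edgeR adjusted p 8.17e-06). Map1lc3a rose by 0.44, Map1lc3b by 0.37, Atg7 by 0.29 and Gabarapl2 by 0.22, with edgeR adjusted p-values of at most 0.0281. Atg5 fell by 0.63 (SE 0.09, edgeR adjusted p 0.000209). Gabarap (0.18, SE 0.08, edgeR adjusted p 0.0761) and Becn1 (0.01, SE 0.06) did not pass. In all 8 of 10 members were called, 7 higher and 1 lower, beside 56.8% of all genes called and 28.4% called in each direction, and 6 did not overlap between the days, beside 46.4%. On the log2(TPM + 1) scale Atg7 (0.22, limma adjusted p 0.0762) and Gabarapl2 (0.15, limma adjusted p 0.0677) lost their calls, and Map1lc3b was at 0.22 (limma adjusted p 0.0107). With the offset for length and GC content Atg7 (0.21, edgeR adjusted p 0.0511) lost its call, Gabarap gained one at 0.40 (edgeR adjusted p 0.00422), and Ulk1 (0.52), Gabarapl2 (0.51) and Atg5 (-0.39) kept theirs. Both comparisons with day 21 hold the same 4 libraries of that day. Atg7 lost its call without wild-type replicate 2 (0.23) or knockout replicate 2 (0.24) of day 7, and Gabarapl2 without wild-type replicate 2 (0.19) or knockout replicate 1 (0.19) of day 7 or the replicate 1 labelled wild type of day 21 (0.20), while Gabarap gained one without the replicate 2 labelled wild type of day 21 (0.265). Over all genes the median ran from -0.29 in the bin of the shortest transcripts to 0.38 in that of the longest against day 0, and from -0.29 to 0.44 against day 7.

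Summed as a pool, the 5 ATG8 transcripts summed to 2376 and 2326 TPM in wild-type and 2144 and 1911 TPM in knockout libraries of day 0. At day 7 the sums were 1488 and 1483 TPM for wild type and 1734 and 1764 TPM for knockout, so the genotype with the larger pool was not the same on the 2 days. The libraries labelled wild type of day 21 summed to 1931 and 1749 TPM and those labelled knockout to 1875 and 2075 TPM. The LC3 branch made up 51.7% and 52.4% of it in wild-type libraries of day 0 against 54.8% and 54.4% in knockout libraries, and 51.1% and 50.1% against 53.3% and 53.0% at day 7. Map1lc3b was the largest part in every library, between 30.9% and 35.3%. The share of Gabarapl1 was 7.49% and 7.70% in wild-type libraries of day 0 against 5.84% and 5.69% in knockout libraries, 7.26% and 7.33% against 5.55% and 5.35% at day 7, and 8.19% to 9.39% in the 4 libraries of day 21. These shares are descriptions of sums of TPM and carry no test.

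**Figure D5:**
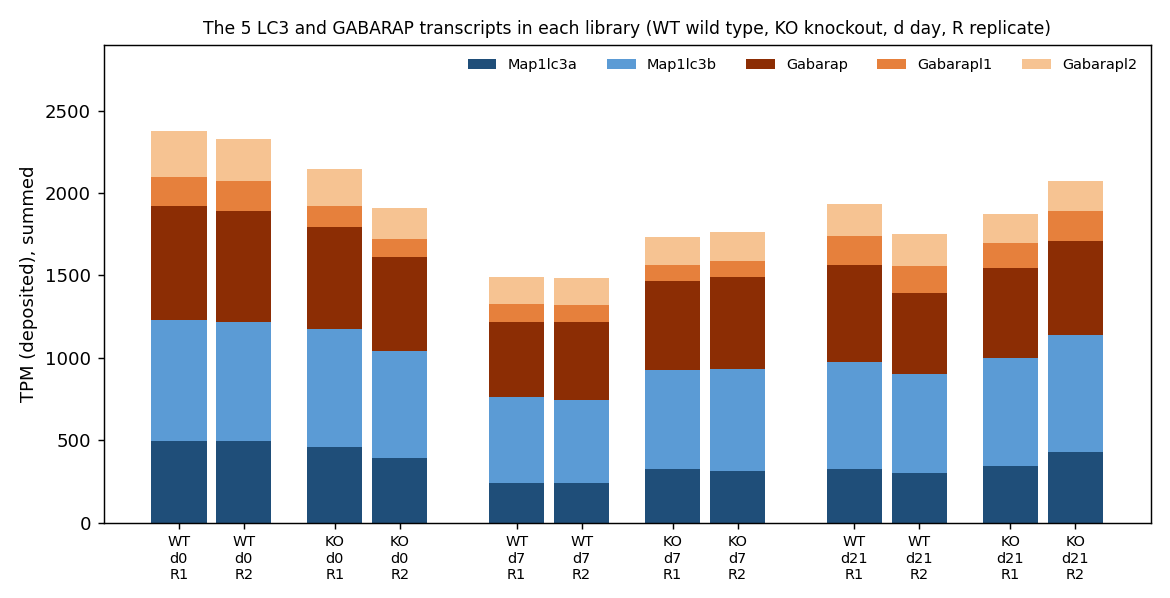
Deposited TPM of Map1lc3a, Map1lc3b, Gabarap, Gabarapl1 and Gabarapl2 stacked for each of the 12 libraries (vertical axis from 0; WT wild type, KO knockout, d day, R replicate, genotype at day 21 by label). The stacks are tallest in wild type at day 0, 2376 and 2326 TPM, and shortest in wild type at day 7, 1488 and 1483 TPM.

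Over the 12 libraries the log2 CPM of 4 ATG8 genes, Map1lc3a, Map1lc3b, Gabarap and Gabarapl2, ran together, with Pearson's r from 0.88 (Map1lc3b with Gabarapl2) to 0.95 (Gabarap with Gabarapl2, and Map1lc3a with Map1lc3b) in their 6 pairs. Outside these 4 the highest r was 0.87, for Sqstm1 with Gabarapl1. Atg5 ran the other way from Sqstm1, with r -0.82, and from Gabarapl1, with r -0.75. These are descriptions over 12 libraries that share day and genotype, so libraries of 1 day lie near each other.

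Among all tested genes that are not members, the nearest to Sqstm1 were Bag3 (r 0.99), which codes for a co-chaperone of selective autophagy, and Cilp2 (r 0.98). The nearest to Gabarapl1 were Dnajb1 (0.97), a heat-inducible co-chaperone, and Sytl1 (0.97). For Gabarap they were S100a1 (0.97) and Tpt1 (0.96), and for Gabarapl2 the same genes in the other order, at 0.98 each. Ulk1 was nearest to Med26 (0.97) and Kpna1 (0.96), Map1lc3a to Inhba (0.98) and Wbp2 (0.97), and Map1lc3b to Fgf18 (0.99) and Ptgis (0.98). Atg5 was nearest to Dna2 and Usp14 (0.97 each), Atg7 to Map7 (0.96) and Ano2 (0.92), and Becn1 to Mageb16 (0.98) and Fbxo9 (0.97). Ranked by Spearman's rho in place of r, only 2 of these 20 names were kept.

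Beyond the 10 members, 76 other genes of the pathway in 8 lists were all found and tested. At day 0, 19 were higher in knockout and 7 lower, with a median log2 fold change of 0.06, beside 14.8% and 12.6% of all genes (24 and 15 without the 2 doubted libraries, beside 20.2% and 17.8%). Higher were Atg2b, a lipid transfer protein of the growing membrane (1.46, SE 0.18, edgeR adjusted p 0.000735), Ambra1, a partner of Beclin 1 (1.12, SE 0.16), Trp53inp2, an autophagy cofactor (1.11, SE 0.18), Wdfy3, an adaptor of protein aggregates (1.02, SE 0.12), Tecpr1, a tether between autophagosome and lysosome (0.77, SE 0.09), and Ulk2, the paralog of Ulk1 (0.70, SE 0.10). Lower were Atg10, the conjugating enzyme of ATG12 (-0.68, SE 0.20), Ykt6, a fusion SNARE (-0.66, SE 0.12), the lysosomal protease gene Ctsl (-0.60, SE 0.12) and the mitophagy receptor gene Bnip3l (-0.35, SE 0.09). All edgeR adjusted p-values of these were at most 0.0279. Here too length moved with direction: of the 6 and 18 genes in the 2 shortest bins none was higher and 1 and 3 were lower, and of the 17 and 19 in the 2 longest 8 and 8 were higher and 1 and 1 lower. With the offset for length and GC content 16 of the 76 were still called higher and 5 lower, beside 14.2% and 9.88% of all genes.

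At day 7 and, by label, at day 21 none of the 76 differed between genotypes by the edgeR test, beside 1.76% and 0.0126% of all genes called. At an unadjusted p under 0.05 there were 5 and 15, beside 14.3% and 14.2% of all genes, and DESeq2 called 0 at day 7, beside 4.78% of all genes, and 2 higher and 1 lower at day 21, beside 2.7%. Without the 2 doubted libraries edgeR called 1 higher at day 7, beside 7.28% of all genes, and 12 higher and 3 lower at day 21, beside 7.67%. From day 0 to day 7 in wild type 18 rose and 20 fell, beside 25.8% and 21.2% of all genes, with a median of -0.01. The phosphoinositide-binding gene Wipi1 rose by 0.79 (SE 0.13), Ykt6 by 0.81 (SE 0.12) and Vmp1, which acts in membrane supply, by 0.70 (SE 0.09). In the same interval Foxo1, a transcription factor of the fasting response, fell by 0.85 (SE 0.16), Vamp8, a fusion SNARE, by 0.86 (SE 0.12) and Atg101, a subunit of the ULK complex, by 0.55 (SE 0.12), all with edgeR adjusted p-values of at most 0.00407. In knockout 11 of the 76 rose and 21 fell, beside 24.7% and 22.2% of all genes (7 and 26 with the offset for length and GC content, beside 21.9% and 24.8%). Ykt6 and Wipi1 again rose, by 1.27 (SE 0.12) and 1.04 (SE 0.13), while Trp53inp2 fell by 1.17 (SE 0.18) and Tecpr1 fell by 1.16 (SE 0.09).

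The interaction called 4 of the 76 with a higher and 12 with a lower value in knockout, beside 6.08% and 7.39% of all genes, and without the 2 doubted libraries 11 and 19, beside 11.5% and 12.5%. Those lower included Atg2b (-1.51, SE 0.25), Wdfy3 (-1.22, SE 0.17) and Ulk2 (-0.96, SE 0.15), and those higher included Ctsl (0.76, SE 0.17), each with an edgeR adjusted p of at most 0.0190. With the offset for length and GC content the interaction called 3 of the 76 higher and 8 lower, beside 4.08% and 5.56% of all genes. Against day 0, 22 rose and 13 fell by day 21, beside 25% and 20.8% of all genes, but with the offset for length and GC content 11 were called higher and 17 lower, beside 19.4% and 21.6%. Against day 7, 31 rose and 15 fell, beside 28.4% in each direction. Foxo1 rose by 1.05 (SE 0.11), Ambra1 by 1.01 (SE 0.11) and Atg2b by 1.61 (SE 0.13) from day 7 to day 21, while Wipi1 fell by 0.97 (SE 0.09) and Ykt6 fell by 0.67 (SE 0.08), with edgeR adjusted p-values of at most 6.03e-05.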

How the data were processed

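Per the labels, RNA of sorted cells was amplified with SMART-Seq v4 and sequenced as single-end reads. The submitters' processing notes name kallisto 0.46.1 and the builds GRCm38.p6 and mm10, without roles. The authors deposited estimated counts, TPM and log2-scale values (a regularised log, batch corrected per the file name, with the batch not given in the sources used here). Estimated counts were rounded and tested with edgeR 4.0.16 (quasi-likelihood F test, TMM scaling, filterByExpr, 6 groups, all 12 libraries, 6 residual degrees of freedom), with Benjamini-Hochberg adjustment over 15890 genes and calls at an adjusted p under 0.05. The pipeline was tested on simulated data, where it missed most of the small changes put in, so a member that was not called is not shown to be unchanged. DESeq2 1.42.0 and limma 3.58.1 (on log2(TPM + 1) and on the deposited log values) were alternatives. Lengths and positions are from GENCODE M21 on GRCm38. A length was found for 99.3% of the tested genes. Overlapping and near-identical transcripts were found with BLAST 2.17.0. The members and the pathway and marker lists were chosen with earlier results of these data known. Named beyond the members were, per pathway list and comparison, at most the called gene with the smallest adjusted p in each direction, and per member the 2 genes with the highest Pearson's r. Of the protein sequences and the genome, none were used here.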

Additional observations from a re-analysis of the deposited data

Results flagged for a closer look

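The change from day 0 to day 7 differed between knockout and wild type for 4 members when the difference itself was tested in edgeR, beside 13.5% of all genes. In log2 units the knockout response minus the wild-type response was 0.77 for Map1lc3a, 0.69 for Gabarap, 0.62 for Gabarapl2 and 0.53 for Gabarapl1. Map1lc3a fell by 1.31 in wild type and fell by 0.54 in knockout, Gabarapl2 fell by 0.97 and fell by 0.36, and Gabarapl1 fell by 0.95 and fell by 0.42. Gabarap fell by 0.87 in wild type and was at -0.18, not past the test, in knockout. With the offset for transcript length and GC content none of the 4 differences passed, beside 9.63% of all genes called. Nor was any member called without wild-type replicate 1 or 2 of day 0, knockout replicate 2 of day 0, or wild-type replicate 1 of day 7. Those fits called 4.41%, 4.64%, 3.76% and 5.12% of all genes.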

How the results depend on the processing

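Of 2050 alternative values for the members, 49 changed sign, and 0 of these belonged to a called value on either side. Where a change of 1 log2 unit or more was also required, 0 members were called between genotypes at day 0, 2 for day 7 in wild type, 0 in knockout, 0 for the difference of responses, 0 for day 21 against day 0 and 1 against day 7, beside 9.41%, 23.1%, 23.3%, 6.89%, 11% and 20.3% of all genes. DESeq2 called 7 at day 0 and 1 at day 7 (31.3% and 4.78% of all genes), the fit of the 8 libraries of days 0 and 7 called 7 and 3 (38.9% and 7.46%), the fit of only the compared libraries 7 and 1 (49.5% and 2.88%), and the fit without the 2 doubted libraries of day 21 (added after seeing the data) 7, 3 and, at day 21, 1 (38.1%, 7.28% and 7.67%). In each of these 4 fits the 7 at day 0 were 2 higher and 5 lower, against 0 and 4. The rises in members called thus came with rises over all genes, from 27.4% at day 0, 1.76% at day 7 and 0.0126% at day 21. An offset for effective length gave 2 at day 0 and 2 for the difference of responses (22.9% and 9.35% of all genes), and the offset for transcript length and GC content (added after seeing the data) gave 1 and 0 (24.1% and 9.63%). The batch-corrected log values gave 3 at day 7 and 7 for the difference of responses, 6 higher and 1 lower (3.79% and 14.3%). TPM without a filter gave 3 for day 7 in knockout and 1 for the difference (30.6% and 5%), which was Becn1, lower in knockout, while the 4 ATG8 genes lost their calls. Leaving out 1 library each gave 1 to 7 calls at day 0, 0 to 1 at day 7, 0 to 1 at day 21, 7 to 8 in wild type, 3 to 8 in knockout, 0 to 6 for the difference, 5 to 8 and 6 to 9 for day 21 against days 0 and 7. The shares of all genes called ran in that order from 10.6% to 32.7%, 0.0944% to 3.93%, 0% to 5.58%, 32.9% to 50.2%, 35.1% to 50.4%, 3.76% to 18.2%, 36.6% to 46.6% and 50.8% to 56.8%. The causes were not tested. Deviations between replicates 1 and 2 were little correlated from group to group (-0.143 to 0.07). Such correlations cannot tell whether libraries of the same replicate number were processed together. With the replicate block 3 members were called at day 0, beside 25.7% of all genes, and Map1lc3a had an edgeR adjusted p of 0.0504. For the difference of responses 3 were called, beside 11.3% of all genes, and Gabarapl1 had an edgeR adjusted p of 0.0533. The counts of members in the other comparisons were the same.

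Values that changed sign were small. At day 0 Atg7 was at -0.18 (effective length), -0.1178 (TPM, with and without filter), -0.1226 (TPM + 0.1), -0.1982 (log values) and -0.0803 (length and GC), and Atg5 at 0.091 (length and GC). At day 7 Becn1 was at -0.1084 (effective length), -0.1443 (TPM, with and without filter), -0.1452 (TPM + 0.1) and -0.0858 (log values). At day 21 Gabarap was at -0.0018 (no filter), -0.0116 (effective length) and -0.0225 (log values), Becn1 at -0.0023 (log values), Ulk1 at 0.1259 and Gabarapl2 at 0.0298 (without the doubted libraries), and with length and GC Gabarapl2 at 0.0039 and Atg5 at 0.0095. For day 7 in knockout Ulk1 was at 0.0186 (TPM, with and without filter), 0.0193 (TPM + 0.1) and 0.0412 (length and GC), and Atg7 at 0.005 in the TPM fits. With length and GC the difference of responses of Atg5 was -0.1329, Atg7 at day 21 against day 0 was at -0.0855 and Becn1 at day 21 against day 7 at -0.0251. Leaving out 1 library each, the ranges that spanned 0 were, at day 7, -0.1131 to 0.0022 for Atg5, -0.0081 to 0.2746 for Atg7 and -0.0119 to 0.0327 for Becn1. At day 21 by label they were -0.3498 to 0.2105 for Ulk1, -0.1345 to 0.5987 for Sqstm1, -0.0702 to 0.2532 for Map1lc3b, -0.1585 to 0.2046 for Gabarap, -0.1681 to 0.0723 for Gabarapl1, -0.1399 to 0.0055 for Gabarapl2, -0.1793 to 0.0589 for Atg5 and -0.0219 to 0.0791 for Becn1. For the difference of responses Atg7 ran from -0.0584 to 0.2243, and for day 21 against day 7 Becn1 ran from -0.0022 to 0.0407.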

Other observations

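The deposited batch-corrected log2-scale values show less of the day 21 split of Sesn2 than the counts: the split is smaller in the pair labelled knockout and is not in the same direction in the pair labelled wild type. They list Sesn2 at 10.1 and 9.81 in the libraries labelled wild type of day 21, replicates 1 and 2, and at 9.65 and 11.2 in those labelled knockout, where the counts gave 8.92 and 82.1 CPM and 9.86 and 108 CPM. For Sqstm1 the same table lists 16.6 and 16.5 under the wild-type label and 16.7 in both libraries under the knockout label, where the counts gave 3931 and 2374 CPM and 3984 and 3178 CPM.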
